A study of Mus musculus with 6 samples.

Results

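Semaphorins are guidance ligands, and plexins and neuropilins are their receptors. All mouse genes whose symbol starts with Sema3, Sema4, Sema5, Sema6, Sema7, Plxna, Plxnb, Plxnc or Plxnd were taken from the tables, together with *Nrp1* and *Nrp2*. This gave 34 of the 43346 Ensembl genes listed. There were 20 semaphorins, 9 plexins, 2 neuropilins and 3 antisense RNAs of *Plxna4*. The rule itself reads only the symbol.

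The question behind the series is how Sox11, a transcription factor of the SoxC group, and a form of it that cannot receive the small modifier SUMO at lysine 91 act on gene expression in retinal ganglion cells (RGCs). Mouse RGCs purified by immunopanning on CD90.1, the Thy1 antigen, were transduced in culture with 1 of 3 adeno-associated viruses (AAVs). The groups were a control AAV, a Sox11 AAV and a Sox11 K91A AAV, with 2 replicates each and 6 libraries in all. Every group, control included, grew on polylysine and laminin with forskolin, BDNF and CNTF, at 250000 cells per well. The virus was added 4 h after plating at about 100000 vector genomes per cell, and RNA was taken at 72 h. Embryonic day 18 is given as the age for the RNA sequencing, postnatal day 2 for the general culture, and postnatal day 0 in the names of the tables. By the study's methods the viruses were of AAV2 capsids and each carried EGFP, the control EGFP alone, and the mice were C57BL/6 of both sexes. No promoter of the viruses and no sort for transduced cells is described. Libraries were made in duplicate from 3 RNA samples, and nothing says that duplicates came from separate cultures, so p-values measure only the spread between these samples.

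Expected counts summed to between 27521982 and 37061718 per library. *Sox11* held 234 and 332 CPM (counts scaled to a common library size) in the control libraries, 9178 and 14590 with Sox11, and 11970 and 7026 with Sox11 K91A, which goes with the labels. Counts per gene do not separate viral from cellular *Sox11* transcripts. The first principal component, with 62.9% of the variance, put control at −75 and −72.2, Sox11 at 20.9 and 74.2, and Sox11 K91A at 41.3 and 10.8. Among the Sox11 and Sox11 K91A libraries, this order was that of their *Sox11* levels. The part of the *Sox11* level in the members' values was not tested. On the second principal component, with 18.2% of the variance, control replicate 2 and Sox11 replicate 2 lay far from the rest. These 2 libraries also had the lowest *Xist* levels, 95.9 and 254 CPM, against 400 to 526 CPM elsewhere, and the highest levels of the Y-linked genes *Ddx3y* and *Eif2s3y*. *Ddx3y* held 30.0 and 29.9 CPM there, against 16.2 to 17.8 CPM in the rest, and *Eif2s3y* 25.1 and 33.9 CPM, against 7.66 to 12.6 CPM. The duplicates of control and of Sox11 thus differed in their mix of female and male cells, whereas those of Sox11 K91A lay close together, so this mix was not balanced between control and Sox11 K91A. Several amacrine markers given below were also lowest in control replicate 2 and Sox11 replicate 2. The counts of members called and the changes of many members are therefore also given without these 2 libraries. That fit keeps a single control and a single Sox11 library, so its spread and its calls rest on the Sox11 K91A pair. For single members only the size of the change is given from it. Counts of the pathway and marker lists are from all 6 libraries.

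Class 3 semaphorins are secreted and mostly bind a neuropilin, which passes the signal to an A-type plexin. Semaphorins of classes 4, 5 and 6 span the membrane, and Sema7a is held in it by a lipid anchor. Plexins act on small GTPases inside the growth cone, and semaphorin signals there often repel or stop an axon, although some attract it. In the retina and along the optic pathway these genes take part in axon routing and in the layering of neurites.

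To show the DNA before the start of members past the threshold with Sox11, promoter windows were read from RefSeq on GRCm38.p6. Of the 31 protein-coding members, 26 had at least 1 window, and the 37 windows covered the 250 bases before the start. SOX proteins bind a short core, searched here as ACAAAG and ACAATG on both strands. A window held 1 or both in 8 of 37 cases (21.6%), against 25.2% of all 32851 windows of the same length, so the share in the members was near that of all genes. All 10 members past the threshold with Sox11 had a window, and in 3 of them, *Plxnc1*, *Sema3a* and *Sema6d*, a window held a core.

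The 4 windows shown are those of 2 upregulated members with a core, of *Sema6d* at its outermost start, which had none, and of *Plxnd1*, the downregulated member, which had none. Each runs 5′ to 3′ on the strand of the gene, and capitals mark the cores. None of the 4 overlaps an annotated exon. A core is a match of letters, and binding was not measured.
Sema3a, plus strand, chr5:13396534-13396783: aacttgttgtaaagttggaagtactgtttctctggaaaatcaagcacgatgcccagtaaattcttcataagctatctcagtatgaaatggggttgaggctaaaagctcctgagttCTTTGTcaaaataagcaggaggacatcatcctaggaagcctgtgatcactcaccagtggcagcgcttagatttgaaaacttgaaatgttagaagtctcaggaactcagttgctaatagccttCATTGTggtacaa
Plxnc1, minus strand, chr10:94944846-94945095: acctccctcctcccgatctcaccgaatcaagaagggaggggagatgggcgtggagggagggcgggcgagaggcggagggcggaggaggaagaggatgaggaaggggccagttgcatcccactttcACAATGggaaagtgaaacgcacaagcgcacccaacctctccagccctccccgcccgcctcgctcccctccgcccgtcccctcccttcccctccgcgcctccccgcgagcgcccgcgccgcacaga
Sema6d, plus strand, chr2:124089719-124089968: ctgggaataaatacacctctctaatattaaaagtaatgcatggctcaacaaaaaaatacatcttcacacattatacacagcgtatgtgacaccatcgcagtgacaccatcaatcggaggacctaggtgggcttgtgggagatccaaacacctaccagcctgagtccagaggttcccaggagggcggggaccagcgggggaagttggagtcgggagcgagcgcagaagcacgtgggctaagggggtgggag
Plxnd1, minus strand, chr6:115995006-115995255: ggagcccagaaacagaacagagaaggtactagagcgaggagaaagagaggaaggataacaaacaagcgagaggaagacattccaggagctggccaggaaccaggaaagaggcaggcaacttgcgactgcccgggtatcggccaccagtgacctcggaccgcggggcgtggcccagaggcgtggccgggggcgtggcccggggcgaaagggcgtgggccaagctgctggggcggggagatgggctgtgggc

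In *Sema3a* the cores lay on the other strand and began 135 and 13 bases before the RefSeq start, which lies inside the gene as GENCODE draws it. In *Plxnc1* the ACAATG began 125 bases before the start. The member windows were rich in G and C, with a median of 64.0% against 52.4% over all windows. The windows shown spread from 40.8% in *Sema3a* to 68.8% in *Plxnc1*.

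Levels between genes are given in TPM, which scale for both transcript length and library size. In the control cultures the highest members were *Plxna1*, with 72.5 ± 40.2 TPM (mean ± SD, n = 2), and *Plxna3*, with 71.5 ± 14.2 TPM. They were followed by 3 class 6 semaphorins, *Sema6a* at 64.5 ± 27.8 TPM, *Sema6b* at 63.8 ± 13.4 TPM and *Sema6c* at 58.7 ± 6.43 TPM. The libraries of these 5 genes overlapped between neighbours in the order. *Nrp1*, at 51.1 ± 3.34 TPM, lay below *Sema6c* without overlap, and *Nrp2* held 12.6 ± 4.47 TPM. *Plxna3*, a receptor partner of neuropilins, held 139.6 ± 10.2 TPM with Sox11 and 145.5 ± 15.4 TPM with Sox11 K91A. It then had the highest mean in both. *Sema6c* came next, at 133.8 ± 26.9 and 127.6 ± 8.15 TPM, and with Sox11 its libraries overlapped those of *Plxna3*. *Nrp1* moved from sixth in the order to fifteenth with Sox11 and to thirteenth with Sox11 K91A. Its libraries held 21.6 and 35.4 TPM with Sox11 and 23.6 and 37.7 TPM with Sox11 K91A. In both groups they overlapped those of its neighbours in the order.

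**Figure D1:**
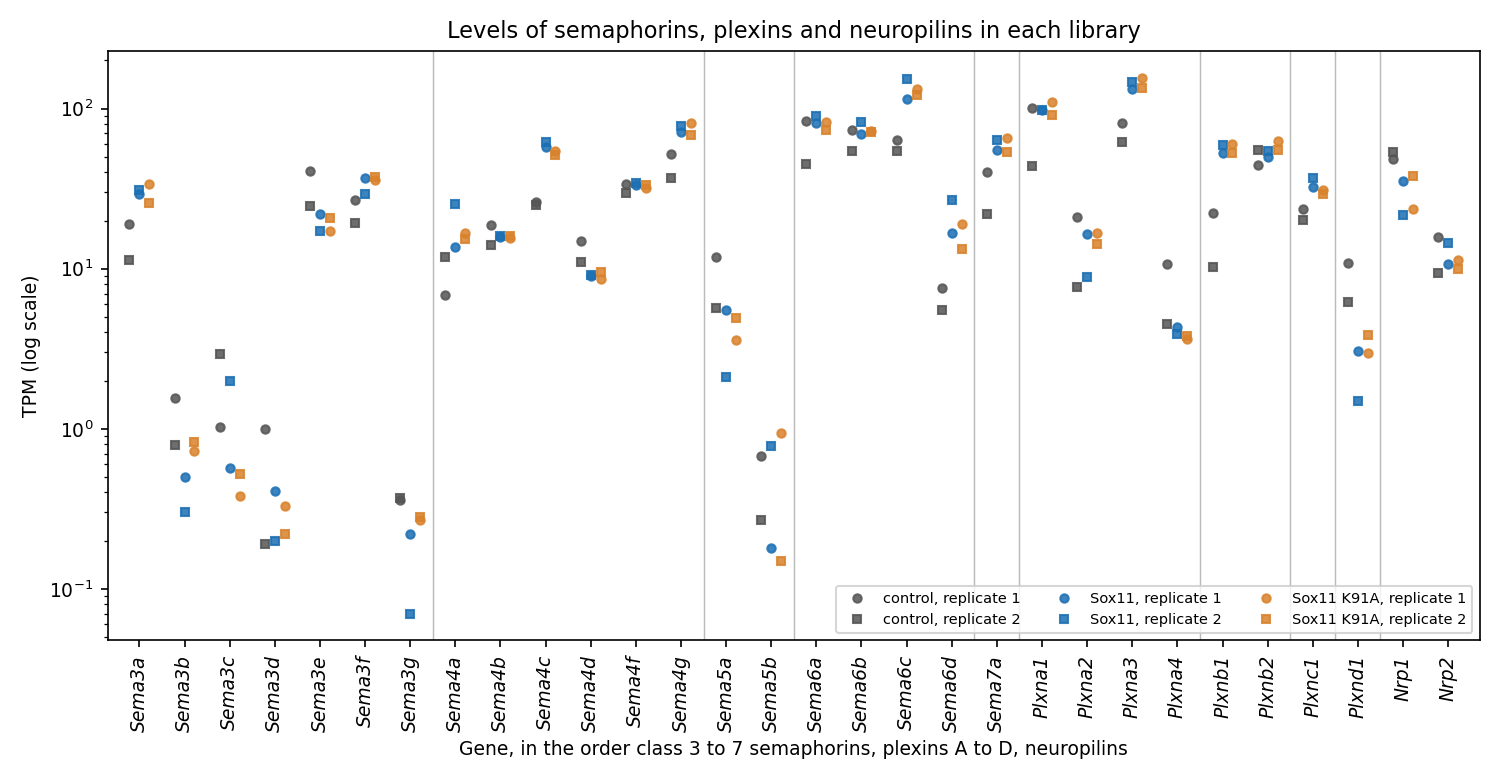
TPM of the 30 tested members in each of the 6 libraries, on a log axis, ordered by class and separated by grey lines. Circles are replicate 1 and squares replicate 2. Plxna1, Plxna3 and the class 6 semaphorins Sema6a, Sema6b and Sema6c lie highest in control, and Sema3b, Sema3c, Sema3d, Sema3g and Sema5b lie lowest.

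Added over the 20 semaphorins, the level was 524.1 and 374.4 TPM in the control libraries, 633 and 723.9 TPM with Sox11, and 674.9 and 618.2 TPM with Sox11 K91A. The 4 class 6 members held the largest share of it, 228.3 and 158.9 TPM in control, 282 and 352.2 TPM with Sox11, and 307.3 and 280.3 TPM with Sox11 K91A. The 7 secreted class 3 members added up to 90.5 and 59.5 TPM in control, and to between 79.9 and 89.9 TPM in the 4 libraries with Sox11 or Sox11 K91A. The summed semaphorin level was higher with Sox11 and with Sox11 K91A than in control without overlap, while the class 3 sum overlapped. The 9 plexins summed to 316.2 and 209.6 TPM in control and to between 385.2 and 443.4 TPM in the 4 others. The 2 neuropilins summed to 64.5 and 62.9 TPM in control and to between 35.0 and 47.7 TPM in the 4 others. Plexin and neuropilin sums thus lay on opposite sides of control, each without overlap. *Nrp1* made up most of the neuropilin sum, while *Nrp2* held means of 12.6 TPM in control, 12.6 TPM with Sox11 and 10.7 TPM with Sox11 K91A. Not all plexins followed their sum, as *Plxna4* and *Plxnd1* lay below both controls in every Sox11 and Sox11 K91A library. These sums are descriptions and were not tested. In bulk RNA, fewer cells of a type and less RNA per cell cannot be told apart.

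Compared with control, Sox11 upregulated 9 of the 30 members tested, *Plxnb1*, *Sema6d*, *Sema6c*, *Sema4c*, *Sema3a*, *Sema7a*, *Plxna3*, *Sema4g* and *Plxnc1*, and downregulated 1, *Plxnd1*. The rises ranged from 1.48-fold to 3.46-fold and the fall was 4.10-fold. Genes were called with limma-voom at an FDR under 0.05 and a fold change above 1.2, which called 9.96% of the 15747 genes tested as higher, 10.2% as lower and 20.1% in all. Of the members, 30% were higher, 3.33% lower and 33.3% called in all, and 19 of 30 had an unadjusted p under 0.05, against 38% of all genes. The median log2 fold change of the members was 0.08, against 0.009 over all genes tested, and the median size of the change without its sign was 0.804 against 0.465. DESeq2 called 15 members, 9 higher and 6 lower, and 27.5% of all genes. Its 5 additional calls, all lower, were *Nrp1*, *Plxna4*, *Sema3e*, *Sema4d* and *Sema5a*. With edgeR's quasi-likelihood test 8 members were higher and 1 lower, and 18% of all genes were called. Without control replicate 2 and Sox11 replicate 2, 11 members were called, 6 higher and 5 lower, of which 6 were among the 10, and 13.1% of all genes were called. Without Sox11 replicate 2 alone, 0 members and 0% of all genes were called, with a single Sox11 library left.

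Compared with control, Sox11 K91A upregulated 7 members, *Plxnb1*, *Sema6d*, *Sema6c*, *Plxna3*, *Sema3a*, *Sema4c* and *Sema4g*, from 1.64-fold to 3.51-fold. It downregulated 0 members, although 16 members had an unadjusted p under 0.05, against 30.6% of all genes. Over all genes tested, limma-voom called 5.81% higher, 4.81% lower and 10.6% in all. DESeq2 called 5 members lower and edgeR's quasi-likelihood test 0. The median log2 fold change of the members was 0.19, against 0.017 over all genes. Both comparisons used the same control libraries, so their calls are not independent. Without control replicate 2 and Sox11 replicate 2, 18 members were called, 9 higher and 9 lower, and all 7 were among them. The share of all genes called rose as well, to 25.8%. Without control replicate 2 alone, and without Sox11 K91A replicate 1, 0 members were called, and without Sox11 K91A replicate 2 only *Plxnb1* was. These fits called 0%, 0.116% and 1.92% of all genes.

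**Figure D2:**
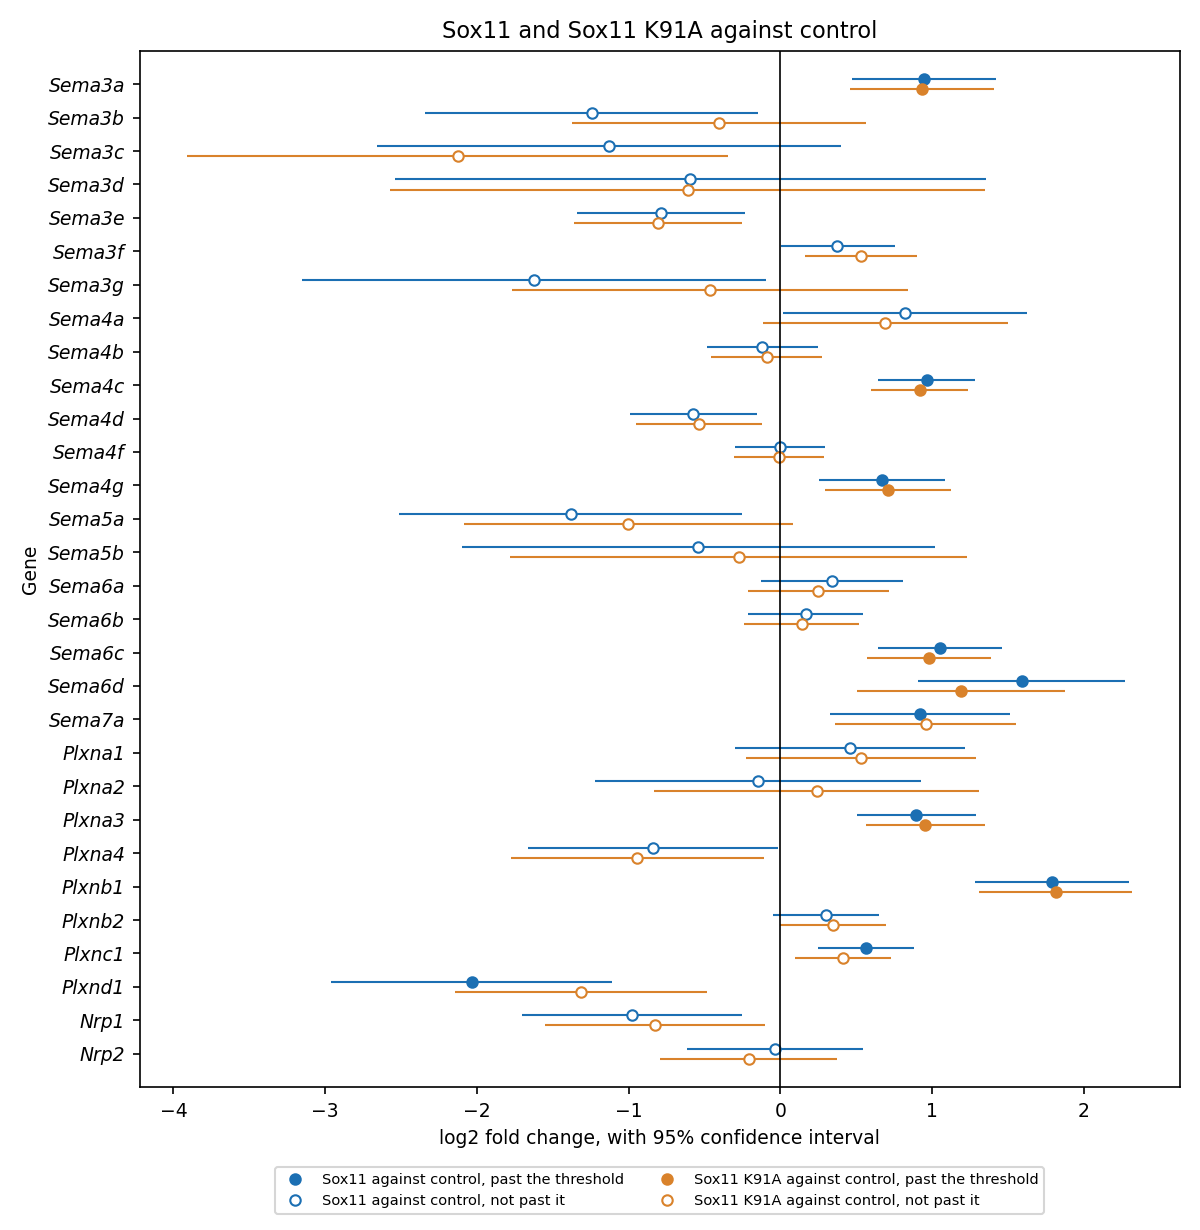
The log2 fold change of each tested member against control, with its 95% confidence interval from limma-voom, for Sox11 (blue) and Sox11 K91A (orange). Filled points passed the threshold, which 9 members did upward and Plxnd1 downward with Sox11, and 7 upward with Sox11 K91A. The vertical line is no change.

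Among the secreted ligands, *Sema3a*, the repellent semaphorin that signals through *Nrp1*, was the only 1 of 7 called. It held 48.3 and 36.0 CPM in control, 78.7 and 80.8 CPM with Sox11, and 90.7 and 68.8 CPM with Sox11 K91A. All 4 Sox11 and Sox11 K91A libraries lay above both control libraries. The log2 fold change was 0.94 ± 0.20 (SE) with Sox11 (limma-voom, adjusted p = 0.0242) and 0.93 ± 0.20 with Sox11 K91A (limma-voom, adjusted p = 0.0357). Without control replicate 2 and Sox11 replicate 2 the change with Sox11 was smaller, at 0.71.

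*Sema3e*, which binds *Plxnd1* directly without a neuropilin, lay lower with Sox11 and with Sox11 K91A. It held 134.4 and 90.2 CPM in control, 72.7 and 56.3 CPM with Sox11, and 57.2 and 69.4 CPM with Sox11 K91A. The groups did not overlap, but the log2 fold changes of −0.79 ± 0.23 and −0.81 ± 0.23 did not pass the threshold (limma-voom, adjusted p = 0.0554 and 0.0701). Without control replicate 2 and Sox11 replicate 2 the changes were −0.88 and −1.09. *Sema3f*, the main ligand of *Nrp2*, held 29.2 and 24.9 CPM in control, 37.3 and 32.6 CPM with Sox11, and 39.8 and 37.6 CPM with Sox11 K91A. It was higher in all 4 of these libraries than in control, and its changes of 0.38 and 0.53 did not pass.

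Of the other secreted members, *Sema3b*, *Sema3d* and *Sema3g* were near the limit of what these libraries measure. *Sema3c* held 77 and 284 counts in control, 33 and 120 with Sox11, and 33 in both Sox11 K91A libraries. It was highest in control replicate 2 and Sox11 replicate 2. *Sema3b* held 0.48 to 1.65 CPM, *Sema3c* 1.02 to 7.37 CPM, *Sema3d* 0.63 to 3.22 CPM and *Sema3g* 0.15 to 0.88 CPM over the 6 libraries. Their log2 fold changes lay between −1.63 and −0.59 with Sox11 and between −2.13 and −0.41 with Sox11 K91A, and none passed the threshold. Their 95% intervals were wide, from −2.54 to 1.35 for *Sema3d* with Sox11, which holds both a fall and a rise, and from −3.16 to −0.095 for *Sema3g* with Sox11. Without control replicate 2 and Sox11 replicate 2 the changes with Sox11 K91A were −1.34 for *Sema3c* and −1.85 for *Sema3d*.

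Among the class 4 members, *Sema4c*, which binds plexin B2, and *Sema4g* were upregulated. *Sema4c* held 45.9 and 48.0 CPM in control, 87.1 and 96.2 CPM with Sox11, and 91.7 and 85.8 CPM with Sox11 K91A. The replicates lay close together and every Sox11 and Sox11 K91A library held well above both controls. The log2 fold change was 0.96 ± 0.13 with Sox11 (limma-voom, adjusted p = 0.0122) and 0.92 ± 0.13 with Sox11 K91A (limma-voom, adjusted p = 0.019). Over all fits that left libraries out, it stayed between 0.90 and 1.02 with Sox11 and between 0.87 and 0.96 with Sox11 K91A.

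*Sema4g* held 113.4 and 87.0 CPM in control, 152.2 and 164.4 CPM with Sox11, and 176.4 and 149.8 CPM with Sox11 K91A, and the groups did not overlap. Its log2 fold change was 0.67 ± 0.18 with Sox11 and 0.71 ± 0.18 with Sox11 K91A (limma-voom, adjusted p = 0.0397 and 0.0488). The change with Sox11 was smaller without the 2 libraries that stood apart, at 0.43.

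The ligand of plexin B1, *Sema4d*, went below control while its receptor went above it. It held 32.5 and 25.8 CPM in control, 19.3 CPM in both Sox11 libraries, and 18.9 and 20.9 CPM with Sox11 K91A. The groups did not overlap, and the changes of −0.58 ± 0.18 and −0.54 ± 0.18 did not pass (limma-voom, adjusted p = 0.0603 and 0.0928). The changes were −0.75 and −0.71 without control replicate 2 and Sox11 replicate 2. *Sema4a* held 8.59 and 17.0 CPM in control and 18.02 to 26.7 CPM in the 4 others, with changes of 0.82 ± 0.34 and 0.69 ± 0.34 that did not pass. Without those 2 libraries it changed by 1.07 with Sox11 and 1.24 with Sox11 K91A. *Sema4f*, at 62.8 to 65.7 CPM in all 6 libraries, was the steadiest member, with changes of −0.001 ± 0.13 and −0.01 ± 0.13. *Sema4b*, at 27.8 to 33.7 CPM, changed by −0.12 and −0.09 and did not pass.

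The class 5 members did not pass with Sox11 or with Sox11 K91A. *Sema5a*, whose product repels RGC axons, held 63.9 and 33.8 CPM in control, 29.4 and 11.2 CPM with Sox11, and 19.6 and 27.1 CPM with Sox11 K91A. It was lower in all 4 of these libraries than in control, with changes of −1.38 ± 0.48 and −1.004 ± 0.46 (limma-voom, adjusted p = 0.0807 and 0.191). Without control replicate 2 and Sox11 replicate 2 the changes were −1.11 and −1.48. *Sema5b* was at 0.31 to 0.82 CPM in all libraries.

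Of the 4 class 6 members, *Sema6c* and *Sema6d* passed, higher with Sox11 and with Sox11 K91A. *Sema6d*, a ligand of plexin A1 and A4 that also acts as a receptor, held 22.7 and 18.3 CPM in control, 47.2 and 77.6 CPM with Sox11, and 52.7 and 39.9 CPM with Sox11 K91A. The groups did not overlap, although Sox11 replicate 2 stood far above replicate 1. The log2 fold change was 1.59 ± 0.29 with Sox11 (limma-voom, adjusted p = 0.0173) and 1.19 ± 0.29 with Sox11 K91A (limma-voom, adjusted p = 0.0472). Without control replicate 2 and Sox11 replicate 2 these were 1.06 and 1.03.

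*Sema6c* held 78.7 and 96.0 CPM in control, 162 and 201 CPM with Sox11, and 180.1 and 163.2 CPM with Sox11 K91A. All Sox11 and Sox11 K91A libraries lay far above control. Its log2 fold change was 1.05 ± 0.17 with Sox11 and 0.98 ± 0.17 with Sox11 K91A (limma-voom, adjusted p = 0.0144 and 0.0241). *Sema6a* held 142.1 to 231.1 CPM and *Sema6b* 106.5 to 143.9 CPM, and in both comparisons their libraries overlapped those of control. Their changes were 0.34 and 0.17 with Sox11 and 0.25 and 0.14 with Sox11 K91A. In the fit lacking control replicate 2 and Sox11 replicate 2, *Sema6a* was at −0.011 and 0.003 and *Sema6b* at −0.093 and −0.004 in these comparisons, so no direction is read for them.

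*Sema7a*, a membrane-anchored semaphorin that can promote axon growth through integrins and that also binds plexin C1, held 62.5 and 37.5 CPM in control, 84.7 and 97.6 CPM with Sox11, and 103.1 and 84.4 CPM with Sox11 K91A. All 4 Sox11 and Sox11 K91A libraries lay above control. On the log2 scale the change was 0.92 ± 0.25 with Sox11 (limma-voom, adjusted p = 0.0442) and 0.96 ± 0.25 with Sox11 K91A, where it did not pass (limma-voom, adjusted p = 0.0554). A pass in 1 comparison and not in the other is no difference between Sox11 and Sox11 K91A, for which the direct change was 0.04 (95% interval −0.55 to 0.63). Without the 2 libraries that stood apart, the change was smaller, at 0.44 with Sox11 and 0.58 with Sox11 K91A.

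**Figure D3:**
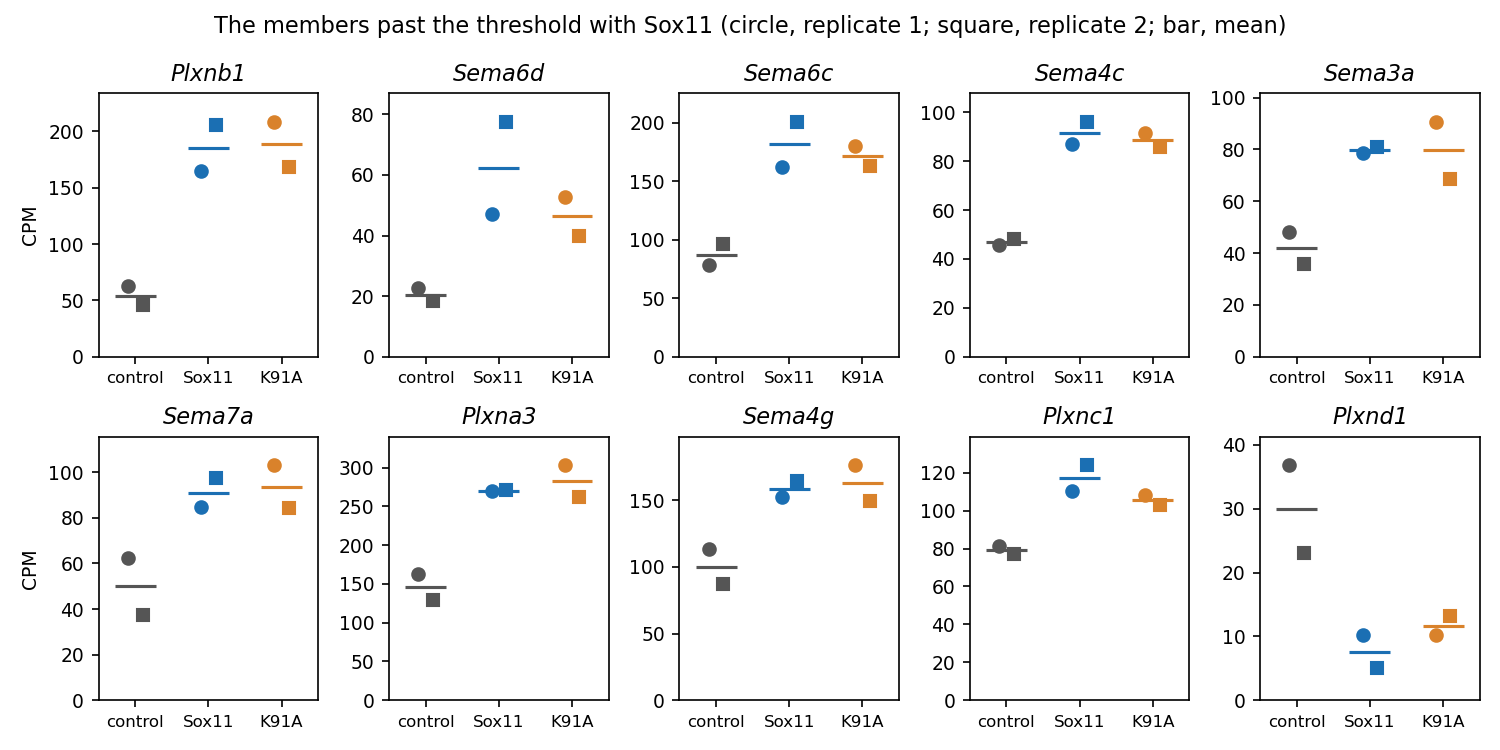
CPM in each library for the 10 members called with Sox11, with circles for replicate 1, squares for replicate 2 and bars for the mean of 2. Each axis starts at 0. In 9 panels the Sox11 and Sox11 K91A libraries lie above both control libraries, and in the panel of Plxnd1 they lie below.

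Among the receptors, *Plxnb1*, which binds *Sema4d* and acts on RhoA and R-Ras, rose most of all members in both comparisons with control. It held 62.9 and 45.5 CPM in control, 164.8 and 206.2 CPM with Sox11, and 208.7 and 168.3 CPM with Sox11 K91A. The lowest Sox11 or Sox11 K91A library held more than double the highest control library. Fitted over all libraries, the log2 fold change was 1.79 ± 0.21 with Sox11 (limma-voom, adjusted p = 0.0112) and 1.81 ± 0.21 with Sox11 K91A (limma-voom, adjusted p = 0.014). Over all fits that left libraries out, it stayed between 1.39 and 2.02 with Sox11 and between 1.58 and 2.05 with Sox11 K91A. *Plxnb2*, the receptor of Sema4c, held 80.1 to 89.9 CPM in control and 96.2 to 113.6 CPM in the others, and its changes of 0.30 and 0.35 did not pass. Without control replicate 2 and Sox11 replicate 2 they were 0.10 with Sox11 and 0.27 with Sox11 K91A. *Plxnb3* held 33 counts over all 6 libraries and was not tested.

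*Plxna3*, a partner of neuropilins for Sema3a and Sema3f, held 162.8 and 128.9 CPM in control, 269.2 and 270.5 CPM with Sox11, and 303 and 261.7 CPM with Sox11 K91A. The groups did not overlap. Its log2 fold change was 0.90 ± 0.17 with Sox11 and 0.96 ± 0.17 with Sox11 K91A (limma-voom, adjusted p = 0.0179 and 0.0233). The other A-type plexins did not pass. *Plxna1* held 452.4 and 216.8 CPM in control and 417.1 to 493.5 CPM in the 4 others, so control replicate 1 lay among them. Its changes of 0.46 ± 0.32 with Sox11 and 0.53 ± 0.32 with Sox11 K91A became −0.05 and 0.009 without control replicate 2 and Sox11 replicate 2. *Plxna2* ranged from 44.2 CPM in control replicate 2 and 47.2 CPM in Sox11 replicate 2 to 113.6 CPM in control replicate 1, with changes of −0.15 ± 0.45 and 0.24 ± 0.45. With Sox11 K91A the *Plxna2* change turned to −0.44 without control replicate 2 and Sox11 replicate 2.

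*Plxna4*, a receptor for Sema3a and class 6 semaphorins, held 69.4 and 31.9 CPM in control, 27.5 and 24.6 CPM with Sox11, and 23.7 and 24.7 CPM with Sox11 K91A. It was lower in all 4 of these libraries than in control, but the control replicates lay far apart, and the changes of −0.84 ± 0.35 and −0.94 ± 0.35 did not pass (limma-voom, adjusted p = 0.126 for each). With control replicate 2 and Sox11 replicate 2 left out, the changes were −1.33 and −1.52. The 3 antisense RNAs of *Plxna4* held 1 count in all.

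*Plxnc1*, the receptor of Sema7a, held 81.6 and 76.9 CPM in control, 110.5 and 124 CPM with Sox11, and 108.1 and 102.9 CPM with Sox11 K91A. The groups did not overlap. On the log2 scale the change was 0.56 ± 0.13 with Sox11 (limma-voom, adjusted p = 0.0317) and 0.41 ± 0.13 with Sox11 K91A, which did not pass (limma-voom, adjusted p = 0.0914). The direct change from Sox11 to Sox11 K91A was −0.15 (95% interval −0.47 to 0.17). Without the 2 libraries that stood apart, the change with Sox11 was smaller, at 0.44.

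*Plxnd1*, the receptor of Sema3e that is best known from blood vessels and axon tracts, fell with Sox11. It held 36.8 and 23.0 CPM in control, 10.3 and 4.98 CPM with Sox11, and 10.2 and 13.2 CPM with Sox11 K91A. All 4 of these libraries lay below both controls. Fitted over all libraries, the log2 fold change was −2.04 ± 0.39 with Sox11 (limma-voom, adjusted p = 0.0195) and −1.31 ± 0.35 with Sox11 K91A, which did not pass (limma-voom, adjusted p = 0.0574). With control replicate 2 and Sox11 replicate 2 left out, the changes were −1.84 and −1.67. The direct change from Sox11 to Sox11 K91A was 0.72 (95% interval −0.30 to 1.74).

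The neuropilins did not pass in the limma-voom fit of all libraries, while DESeq2 called *Nrp1* lower with Sox11. *Nrp1*, the receptor subunit that binds Sema3a, held 141 and 169.5 CPM in control, 101.2 and 60.9 CPM with Sox11, and 68.6 and 110.7 CPM with Sox11 K91A. Every Sox11 and Sox11 K91A library held less than both controls, with changes of −0.98 ± 0.31 and −0.83 ± 0.31 (limma-voom, adjusted p = 0.0637 and 0.125). *Nrp1* thus lay on the other side of control from *Sema3a* and *Plxna3*. With control replicate 2 and Sox11 replicate 2 left out the change with Sox11 was smaller, at −0.47. *Nrp2* held 50.2 and 32.5 CPM in control and 32.5 to 45.0 CPM in the others, with changes of −0.03 and −0.21. Without the 2 libraries that stood apart these were −0.57 with Sox11 and −0.53 with Sox11 K91A.

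In CPM, 12 of the 30 members lay higher than control in every Sox11 library and 9 lay lower in every Sox11 library. The shares of 40% and 30% compare with 30.9% and 30.6% of all genes tested. With Sox11 K91A the counts were again 12 and 9, against 31.2% and 30.7% of all genes. The share without overlap was thus near the background for the lower members.

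**Figure D4:**
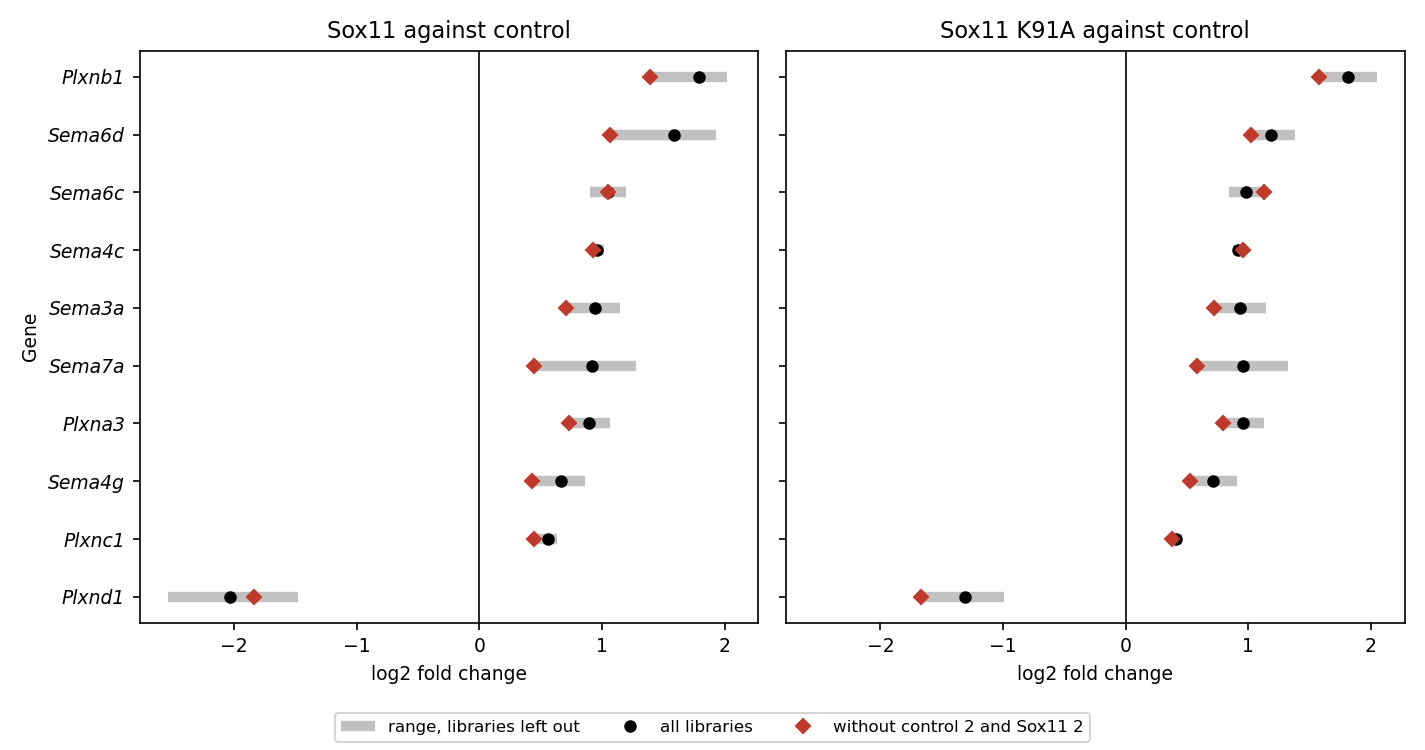
The log2 fold changes of the 10 members called with Sox11, with Sox11 in the left panel and Sox11 K91A in the right, each set against control. Black points are the fit of all 6 libraries, grey bars the range over 7 fits that left out a library or 2, and red diamonds the fit without control replicate 2 and Sox11 replicate 2. No bar crosses 0, and the bars of Sema7a, Sema6d and Plxnd1 are wide against that of Sema4c.

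Sox11 K91A was also compared with Sox11 directly. limma-voom called 0 members and 0% of all genes tested, 0 members and 108 genes (0.686%) had an unadjusted p under 0.05, and edgeR's quasi-likelihood test and DESeq2 called 0 members as well. The members' log2 differences ran from −0.998 for *Sema3c* to 1.16 for *Sema3g*, both with low counts, and their median was 0.03, against 0.006 over all genes. For *Plxnb1* the difference was 0.02 (95% interval −0.48 to 0.53), for *Sema6c* −0.07 (−0.48 to 0.34), for *Sema4c* −0.05 (−0.36 to 0.27), and for *Plxna3* 0.06 (−0.33 to 0.46). For *Sema6d* it was −0.40 (−1.03 to 0.23). A miss of the threshold does not show that Sox11 and Sox11 K91A act alike, and the intervals give the differences these 4 libraries leave possible. In CPM, 4 of 30 members (13.3%) lay higher in both Sox11 K91A libraries and 2 (6.67%) lower, against 13.3% and 13.4% of all genes.

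**Figure D5:**
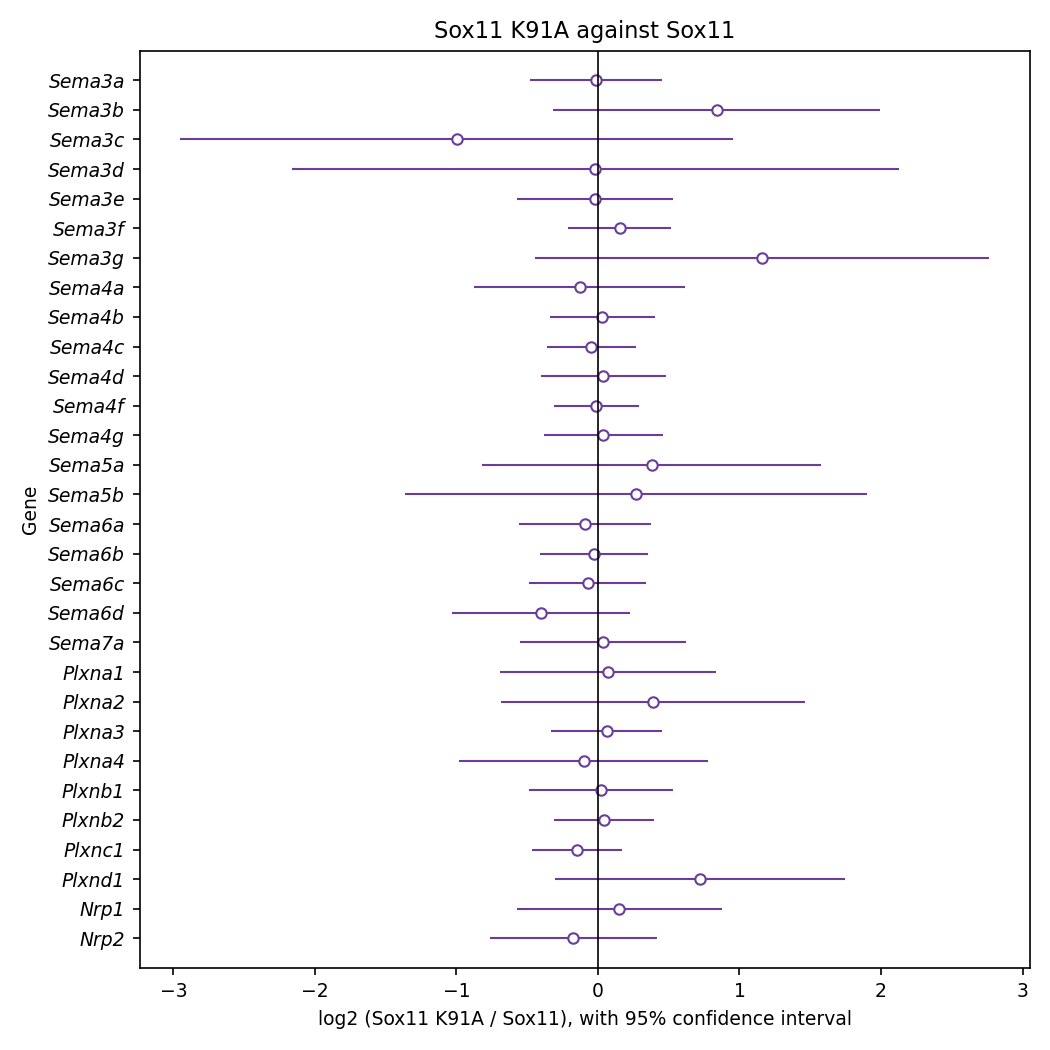
The log2 ratio of Sox11 K91A to Sox11 for the 30 tested members, with 95% confidence intervals from limma-voom. Every interval holds 0, and the narrowest, of Sema4f, runs from −0.31 to 0.29, while that of Sema3d runs from −2.16 to 2.13.

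RSEM gives each gene a mean transcript length weighted by abundance, and for 28 members with at least 1 CPM these lengths were compared by whether the groups overlapped, with no test. *Sema4c* was shorter with Sox11 and with Sox11 K91A, at 3668 and 3684 bases in control, 3226 and 3380 with Sox11, and 3520 and 3444 with Sox11 K91A. *Sema6d* was shorter too, at 6107 and 6124 bases in control, 5860 and 6067 with Sox11, and 5621 and 6062 with Sox11 K91A. With Sox11, 5 of 28 members were separated in this way (17.9%), against 20.7% of all genes, and with Sox11 K91A 4 (14.3%), against 21.3%. Between Sox11 and Sox11 K91A it was 7 (25%), against 20.5%. Means over 1.2-fold apart together with no overlap were found with Sox11 for *Sema3b* and *Sema3c*, both at low counts (7.14%), against 2.54% of all genes. There were 0 such members with Sox11 K91A against control or against Sox11, where 2.05% and 2.01% of all genes were so far apart. The lengths of *Plxnb1* ranged from 5727 to 8214 bases and overlapped between the groups.

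The members' genes lie on several chromosomes of GRCm38 (mm10), as given by GENCODE M21. *Plxnb1* is at chr9:109095389-109119917, *Sema7a* at chr9:57940112-57962865, *Plxnd1* at chr6:115954811-115995005, *Plxna3* at chrX:74329066-74344689 and *Sema4c* at chr1:36548639-36558349. Counts are summed over the exons of a gene, and whether the counting used strand is not stated, so overlapping genes cannot be told apart where exons are shared. Exons of *Plxnb1* overlap those of *Gm7628* on the other strand, at 0.83 to 1.93 CPM here, and exons of *Sema4c* those of *D430040D24Rik* on the other strand, at 1.25 to 2.66 CPM. Exons of *Plxna1* overlap *Gm26811*, at 0.83 to 2.00 CPM. These levels are small beside those of the members. Exons of *Plxnc1* overlap *Gm48718* on the same strand, which was not analysed here.

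The intracellular partners were described from lists of genes with a known place in semaphorin signalling. A list of 10 genes covered CRMPs, the collapsin response mediator proteins that carry Sema3a signals to microtubules. It also covered Micals, enzymes that oxidise actin, and the Mical-like genes *Micall1* and *Micall2*. Of the 10, 5 rose and 1 fell with Sox11, against 9.96% and 10.2% of all genes. *Dpysl3* (CRMP4) held 1899 and 1638 CPM in control, 3554 and 4023 CPM with Sox11, and 3633 and 3368 CPM with Sox11 K91A, a change of 1.10 and 0.99. *Dpysl4* (CRMP3) rose by 1.18 and 1.31, *Dpysl5* (CRMP5) by 0.68 and 0.69, and *Crmp1* by 0.57 and 0.61. *Dpysl2* (CRMP2) changed by 0.12 and −0.007 and did not pass. *Mical3* rose with Sox11 by 0.72 and changed by 0.67 with Sox11 K91A, where it did not pass. *Mical2* fell by 1.43 and by 1.48 on the log2 scale. With Sox11 K91A, 4 rose and 1 fell, against 5.81% and 4.81% of all genes. The list's median log2 fold change was 0.34 with Sox11 and 0.45 with Sox11 K91A.

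Of 19 genes of plexin GTPase signalling, 2 rose and 3 fell with Sox11, and 0 rose and 2 fell with Sox11 K91A. These are 26.3% of the list, against 20.1% of all genes, and 10.5%, against 10.6%, so the second was at the background. *Rnd1*, a GTPase that binds plexins and opens their catalytic domain, held 12.4 and 13.5 CPM in control, 5.42 and 2.23 CPM with Sox11, and 3.79 and 4.77 CPM with Sox11 K91A. It fell by 1.94 and by 1.62 on the log2 scale, and *Rnd2* fell by 0.99 and by 0.75. *Gipc1*, an adaptor of neuropilin 1 and plexin D1, fell by 0.63 with Sox11 and changed by −0.47 with Sox11 K91A, where it did not pass. *Arhgef12*, the RhoA exchange factor LARG that plexin B1 recruits, rose by 1.02 with Sox11, and *Farp2*, an exchange factor downstream of Sema3a, by 1.04. The median of the list was 0.01 with Sox11 and −0.02 with Sox11 K91A.

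Of 17 kinases and cytoskeletal regulators, 4 rose and 1 fell with Sox11, and 2 rose and 0 fell with Sox11 K91A. These are 29.4% against 20.1% of all genes and 11.8% against 10.6%. *Pak1*, a kinase activated by Rac, rose by 1.18 and 1.04, and *Cdk5r1* (p35), the activator of Cdk5, by 0.88 and 0.75. *Pak2* and *Ptk2* (focal adhesion kinase) rose with Sox11 by 0.67 and 0.57, and *Limk1*, which phosphorylates cofilin, fell by 0.83. Of 14 co-receptors and binding partners tested, 1 rose and 2 fell with Sox11, and 0 rose and 2 fell with Sox11 K91A. These are 21.4% and 14.3%, near the shares of all genes. *Chl1*, an L1 family adhesion protein that binds Nrp1, rose by 1.05 with Sox11. *Itgb1*, the integrin subunit through which Sema7a signals, fell by 0.71 and by 0.67. *Cntn2* (TAG-1) fell by 1.30 with Sox11, and *Met*, a partner of plexin B1, fell by 1.34 with Sox11 K91A. The medians were 0.34 and 0.18 for the kinases and −0.12 in both comparisons for the co-receptors. All calls named here are from limma-voom, adjusted over all genes tested.

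Markers of RGCs were high in every library, and their sum moved with the groups. The 9 RGC markers added up to 10300 and 9546 CPM in control, 6559 and 3998 CPM with Sox11, and 5268 and 6863 CPM with Sox11 K91A. *Nefl* alone made up most of this sum. It held 7086 and 6345 CPM in control, 4104 and 2188 CPM with Sox11, and 3096 and 4328 CPM with Sox11 K91A. Of the 9, 3 fell with Sox11, *Thy1*, *Nefl* and *Slc17a6*, and 1 with Sox11 K91A, *Slc17a6*. These are 33.3% and 11.1%, against 10.2% and 4.81% of all genes called lower. With Sox11, 6 did not pass, among them *Rbpms* (193.5 to 242 CPM), *Pou4f1* (321.3 to 428.1 CPM) and *Isl1* (260.3 to 288.6 CPM). The part of these shifts in the values of the members was not tested. The 5 endothelial markers, chosen because *Plxnd1*, *Nrp1* and *Sema3e* are also used by vessels, added up to 0.62 and 0.64 CPM in control, 2.18 to 2.50 CPM with Sox11 and 2.57 to 3.63 CPM with Sox11 K91A, with *Cdh5* at most 0.05 CPM. Of the 5, 2 passed the filter, *Pecam1* and *Tek*, and both were called higher with Sox11 K91A and neither with Sox11. This sum is near the limit of what these libraries measure, and its bearing on *Plxnd1* and *Nrp1* was not tested. The 7 amacrine markers added up to 95.9 to 233.2 CPM in control, 37.9 to 112.8 CPM with Sox11 and 96.9 to 103.7 CPM with Sox11 K91A. *Slc6a9* was the 1 called, lower with both, while the list's median log2 fold change was 0.22 and 1.25. *Gad1* held 36.2 and 2.83 CPM in control replicates 1 and 2, and 17.5 and 2.23 CPM in those of Sox11. With Sox11 K91A it held 19.7 and 17.2 CPM. *Slc32a1*, *Tfap2a*, *Tfap2b* and *Chat* were also lowest in control replicate 2 and Sox11 replicate 2, whereas *Gad2* and *Slc6a9* were not. The 5 pericyte and fibroblast markers added up to 9.14 to 22.1 CPM, with 0 called. The 6 Müller glia and progenitor markers added up to 104 to 116.5 CPM in control and 275.6 to 323.6 CPM in the 4 others, and *Glul*, which made up nearly all of this, was the 1 of 6 called, higher with both. Microglial, photoreceptor, bipolar and astrocyte markers added up to at most 2.14 CPM in any library, and *Rcvrn*, *Vsx1* and *Gfap* were at 0 in all 6. Of these 4 lists, *S100b*, at most 0.47 CPM, was the only gene called, lower with Sox11. The part of these cells in the members' values was not tested.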

How the data were processed

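Libraries from purified mouse RGC cultures were measured by RNA-seq, with 2 for each of 3 groups. The authors deposited a table per library with the expected count of each gene from RSEM, not normalized, its TPM and its mean transcript length. STAR, RSEM, limma and the mm10 build are named in the submitters' processing notes, and versions, annotation and use of strand are not given in the sources used here. Symbols and coordinates came from GENCODE M21, which named 42462 of the 43346 Ensembl genes.

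Expected counts were rounded, filtered with filterByExpr of edgeR 4.0.16, and scaled with TMM factors between 0.985 and 1.04. All 6 libraries entered 1 two-sided limma-voom fit over the 15747 genes kept (R 4.3.3 with limma 3.58.1). P-values were adjusted by Benjamini and Hochberg across these genes, and calls needed an FDR under 0.05 with a fold change above 1.2. CPM used TMM-scaled library sizes. SE and 95% intervals are those of limma-voom. Members called were given in every library and members with a mean of at least 1 CPM by level and change. From each pathway or marker list, genes called were named, at most 6. Some members and markers that did not pass were given in every library after their values were seen. The members and lists were chosen with earlier results of these data known. The fit was tested on simulated counts. Total expected counts per library, 27521982 to 37061718, set the counting error, which weighs most on members near 1 CPM.

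As alternatives, edgeR's quasi-likelihood method, DESeq2 1.42.0, sample weights, limma-trend with pseudocounts of 1 and 0.1 on TPM, other scalings (DESeq2 size factors or none beyond library size), a looser filter (1 count in any library), a stricter filter (10 in each), unrounded counts, fold thresholds of 1.5 or none, and fits of only the groups at issue were run. Further fits used the replicate number as a block, a term for libraries with low *Xist*, or left out 1 library at a time or control replicate 2 with Sox11 replicate 2. A block with the Sox11 K91A numbers exchanged was added after seeing the data. Promoter windows were taken from RefSeq on GRCm38.p6. Plots used Python 3.11.15 and matplotlib 3.10.9.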

Additional observations from a re-analysis of the deposited data

How the results depend on the processing

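With Sox11 against control, 10 members and 20.1% of all genes were called. The number was 5 with sample quality weights (6.22% of all genes), 6 with log2(TPM + 1) (14.3%) and 6 with log2(TPM + 0.1) (13.4%). It was 16 with the term for low *Xist* (29%) and 15 with DESeq2 (27.5%). With the block whose Sox11 K91A numbers were exchanged it was 15 (25.9%). Leaving out libraries gave between 0 and 12. With Sox11 K91A against control, 7 were called, and the number was 14 with DESeq2, 4 with log2(TPM + 1), 4 with log2(TPM + 0.1), 11 with the term for low *Xist* and 13 with the block whose Sox11 K91A numbers were exchanged, where 20%, 5.94%, 5.69%, 18.4% and 17.5% of all genes were called, against 10.6%. Leaving out libraries gave between 0 and 18. Every fit that left out libraries kept 1 library in at least 1 group, which was then assumed to vary like the others. Without control replicate 2 and Sox11 replicate 2 this held for both of those groups. The cause of the other changes was not tested. With Sox11 K91A against Sox11, 0 members were called under every setting listed.

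With the replicate block, 9 members were called for Sox11, 8 for Sox11 K91A and 0 between them. Of all genes, 17%, 8.9% and 0% were called in these comparisons. *Plxnc1* was lost for Sox11 (limma-voom, adjusted p = 0.0543). For Sox11 K91A, 5 of the 7 calls were kept, *Sema4g* and *Sema6d* were lost (0.0547 and 0.0526), *Sema7a* was called higher (0.0496) and *Plxnd1* and *Sema3c* lower (0.0394 and 0.0407). The deviations of same-numbered libraries from their group means correlated across genes at 0.259, −0.045 and −0.282 in the 3 comparisons, so the numbers were not taken to pair the samples.

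No called member changed sign under any setting listed. Of the members not called, 8 of 20 with Sox11, 7 of 23 with Sox11 K91A and 22 of 30 in the direct comparison had the other sign under at least 1 setting, so no direction is read from those. The *Plxna2* change with Sox11 K91A ran from −0.44 to 0.92 over the fits that left libraries out. Depth limits *Sema3b*, *Sema3d*, *Sema3g*, *Sema5b* and *Plxnb3*.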
